A study of Mus musculus with 13 samples.

Results

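The genes described here are 9 markers of the fields of the hippocampus, 9 of the 36287 genes in the deposited table. They were taken by name. Prox1, Tdo2, Dsp, C1ql2 and Calb1 mark the granule cells of the dentate gyrus, and Wfs1, Fibcd1, Amigo2 and Iyd mark pyramidal cells of the CA fields. Hippocampal mRNA from 5xFAD mice was sequenced in bulk. 5xFAD mice carry human transgenes with mutations of familial Alzheimer's disease, driven by the neuronal Thy1 promoter, and every group had this genotype. The saline group had 4 libraries (animals 18, 19, 32 and 38), the Aducanumab group 4 (24, 50, 56 and 58) and the ACLP-NT group 5 (17, 27, 49, 53 and 55). Aducanumab is an antibody to aggregated amyloid beta, and ACLP-NT is known here by its code name alone. The labels give no age, strain background, dose, route or duration. Wild-type mice do not appear in the labels. The reference is therefore the saline group of the same genotype, or the Aducanumab group where the treated groups are compared with each other.

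The hippocampus passes signals along a chain of fields. Granule cells of the dentate gyrus receive input from the entorhinal cortex and send it through their axons, the mossy fibres, to CA3 pyramidal cells, which project on to CA1. Each field has its own set of transcripts. In RNA from the whole structure, the level of a field marker therefore depends in part on how much RNA that field gave. It also depends on the level per cell and on other cells that make the transcript. Among the dentate genes, Prox1 encodes the homeobox factor that sets granule cell identity, and C1ql2 encodes a secreted C1q-like protein of mossy fibre synapses. Dsp encodes desmoplakin, a protein of desmosomes, Tdo2 encodes a tryptophan dioxygenase that opens the kynurenine pathway, and Calb1 encodes the calcium buffer calbindin. Calbindin is also made by CA1 pyramidal cells and by some interneurons. Among the CA genes, Wfs1 encodes wolframin, a membrane protein of the endoplasmic reticulum, Fibcd1 a membrane receptor with a fibrinogen-like domain, Amigo2 an adhesion protein, and Iyd the enzyme iodotyrosine deiodinase. Wfs1 and Fibcd1 are CA1 markers, and Amigo2 is best known from CA2 and CA3.

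Sequences before the start sites are shown for Prox1, Dsp, C1ql2 and Iyd, because the levels of these genes varied together over the libraries although Iyd is counted among the CA markers. The sequences are from RefSeq (build GRCm38.p6), in which 8 of the 9 genes had an entry, and Calb1 had none. Each covers 216 bases, from 250 to 35 bases upstream of the start site, on the strand of the gene. For Prox1, which has more than 1 start site in the table, the window of the first is given. Capitals mark the E-box letters CANNTG, the core bound by basic helix-loop-helix factors, which read the same on both strands.
Prox1, chr1:190170862-190171077, minus strand: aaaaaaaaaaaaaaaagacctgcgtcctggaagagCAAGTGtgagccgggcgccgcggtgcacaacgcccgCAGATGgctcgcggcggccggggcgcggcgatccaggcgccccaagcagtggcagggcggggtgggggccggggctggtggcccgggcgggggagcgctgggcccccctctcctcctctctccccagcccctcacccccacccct
Dsp, chr13:38151044-38151259, plus strand: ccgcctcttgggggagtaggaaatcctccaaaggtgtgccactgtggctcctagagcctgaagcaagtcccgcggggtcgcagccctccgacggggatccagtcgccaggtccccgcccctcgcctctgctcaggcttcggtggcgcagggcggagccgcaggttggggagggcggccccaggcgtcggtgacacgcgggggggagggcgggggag
C1ql2, chr1:120340332-120340547, plus strand: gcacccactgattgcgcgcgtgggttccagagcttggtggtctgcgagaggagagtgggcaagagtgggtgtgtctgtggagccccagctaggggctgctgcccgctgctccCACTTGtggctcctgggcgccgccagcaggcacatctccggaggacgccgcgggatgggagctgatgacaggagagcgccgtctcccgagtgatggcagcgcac
Iyd, chr10:3540024-3540239, plus strand: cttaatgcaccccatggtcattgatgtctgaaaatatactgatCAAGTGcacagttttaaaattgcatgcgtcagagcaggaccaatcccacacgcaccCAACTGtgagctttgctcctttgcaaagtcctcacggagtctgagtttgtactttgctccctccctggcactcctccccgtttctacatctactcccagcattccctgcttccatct
The Prox1 window held 2 matches to CANNTG, that of Iyd 2, that of C1ql2 1 and that of Dsp 0. Of 32817 windows of the same length before RefSeq start sites, 61.6% held at least 1 match and 26.8% held 2 or more, so these counts are common ones. GGGCGG, the GC-box letters, was searched on both strands and occurred 4 times in the Dsp window, 2 times in that of Prox1 and 0 times in those of C1ql2 and Iyd, beside 27.9% of all windows with at least 1. The share of windows with more than 1 GGGCGG match was not computed, so how common counts of 2 or 4 are is not known here. The number of GGGCGG matches that overlapped a CANNTG match was 0 in each window. G and C made up 72.2% of the Prox1 window, 72.2% of that of Dsp and 67.6% of that of C1ql2, but 48.6% of that of Iyd, where the median window had 51.9%. The window of the second Prox1 start site, not printed, had 55.6% G and C, 0 matches to CANNTG and 1 to GGGCGG, so the Prox1 values depend on the start site. The 216 bases before the start of Tdo2 lie within an exon of that gene in the GENCODE annotation and are not printed.

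The libraries held 53642019 to 69734713 counts. All 9 genes passed the filter on low counts, as did 22065 genes in all. Iyd and Tdo2 were the least counted of the 9, with 150 to 274 and 213 to 508 counts per library. Levels are given as CPM, counts relative to library size, after TMM scaling, and levels of different genes are compared as FPKM, the deposited values per length of the gene. Choroid plexus markers, which come from tissue next to the hippocampus, summed to 53.5 to 5120 CPM over the saline libraries, 88.8 to 5250 CPM over those of Aducanumab and 88.2 to 5129 CPM over those of ACLP-NT, so every group held libraries at both ends. The labels number the animals and give no batch, and the p-values measure only the spread between these samples.

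Compared per length, C1ql2 was the most abundant of the 9 genes, with a median of 35.6 FPKM over the 13 libraries, and Tdo2 the least, with 1.48 FPKM. Between them came Fibcd1 at 29.1, Calb1 at 23.3, Wfs1 at 19.4, Prox1 at 12.4, Amigo2 at 8.79, Dsp at 4.71 and Iyd at 1.72 FPKM. C1ql2 exceeded Fibcd1 in 11 of 13 libraries, Fibcd1 exceeded Calb1 in 12, and Calb1 exceeded Wfs1 in 9. Wfs1 exceeded Prox1, Prox1 exceeded Amigo2, Amigo2 exceeded Dsp and Dsp exceeded Iyd in all 13, but only for Dsp and Iyd did the ranges of the neighbours not overlap. Iyd exceeded Tdo2 in 10 of 13. The granule cell transcripts thus lay at both ends of the order. Genes named for the dentate gyrus and for the CA fields were all detected in every library, as the tissue label says.

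**Figure D1:**
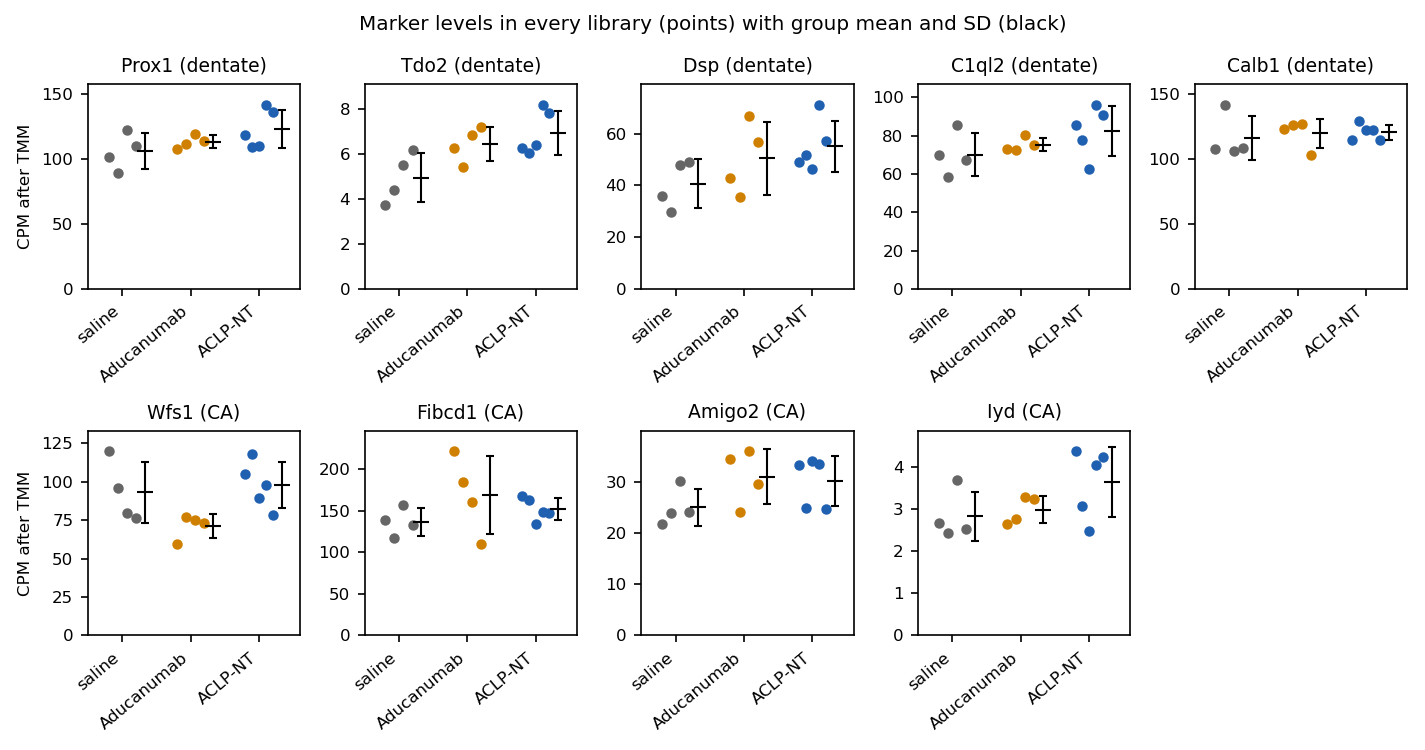
Level of each marker in each library (CPM after TMM scaling, linear axis from 0), with 1 point per library, in gray for saline, orange for Aducanumab and blue for ACLP-NT, and the group mean and SD in black. The ACLP-NT points of Tdo2 lie at 6.04 to 8.20 CPM and overlap the saline points only through saline 38 at 6.17 CPM, whereas the Calb1 groups overlap throughout.

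ACLP-NT against saline asks whether the transcripts of a field differed with that treatment. Of the 9 markers, 0 passed at an adjusted p of 0.05 (edgeR quasi-likelihood test, Benjamini-Hochberg), as did 0% of all 22065 genes. All 5 dentate and all 4 CA markers had means above saline, where 49.4% of all genes had a log2 fold change above 0. At an unadjusted p under 0.05, 3 of the 5 dentate markers were higher (Tdo2, Prox1 and Dsp) and 0 of the 4 CA markers, beside 2.46% of all genes in that direction. In bulk RNA, more granule cells in the sample and more RNA per granule cell cannot be told apart.

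Tdo2 showed the widest difference among the dentate markers. It measured 3.72, 4.42, 5.52 and 6.17 CPM in saline animals 18, 19, 32 and 38, and 6.27, 6.04, 6.40, 8.20 and 7.82 CPM in ACLP-NT animals 17, 27, 49, 53 and 55. Saline 38 lay within the ACLP-NT range, and the other 3 saline libraries lay below all 5 ACLP-NT libraries. Saline averaged 4.96 ± 1.10 CPM (SD, n = 4), ACLP-NT averaged 6.95 ± 0.988 CPM (SD, n = 5), and the log2 fold change was 0.49 (SE 0.155), with an edgeR unadjusted p of 0.00745 and adjusted p of 0.746. Prox1 measured 101.6, 89.6, 122.3 and 110.4 CPM in the saline animals, in the same order, and 118.9, 109.3, 110.4, 141.8 and 136.2 CPM in the ACLP-NT animals. Its groups overlapped, with ACLP-NT 53 and 55 above every saline library, and its log2 fold change was 0.22 (SE 0.0922; edgeR unadjusted p 0.0328, adjusted p 0.796).

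Dsp followed the same libraries. It stood at 36, 29.8, 48.0 and 49.0 CPM in saline and at 49.2, 51.8, 46.5, 71.1 and 57.1 CPM in ACLP-NT. Of the ACLP-NT libraries, ACLP-NT 49 alone fell within the saline range. For Dsp the log2 fold change was 0.44 (SE 0.191; edgeR unadjusted p 0.0387, adjusted p 0.810). C1ql2 stood at 69.8, 58.4, 85.4 and 67.2 CPM in saline and at 85.7, 77.8, 62.6, 96.1 and 90.7 CPM in ACLP-NT. Here saline 32 lay above ACLP-NT 27 and ACLP-NT 49, and ACLP-NT 49 was lower than 3 of the saline libraries. The log2 fold change of C1ql2 was 0.23, with a 95% interval from -0.018 to 0.49.

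Calb1, the calcium buffer, did not share this order. It stood at 107.7, 141.4, 106.0 and 108.3 CPM in saline and at 114.4, 128.7, 121.8, 122.0 and 114.6 CPM in ACLP-NT. Saline 19, the lowest library for Prox1, Dsp and C1ql2, was the highest of all 13 for Calb1. Its log2 fold change was 0.055, with a 95% interval from -0.13 to 0.24. The count of 3 dentate markers at an unadjusted p under 0.05 was 1 without saline 18, without ACLP-NT 53 or without ACLP-NT 55. All 5 dentate markers stayed above saline whichever library was left out.

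The CA markers had means above saline with wider overlap. Iyd stood at 2.66, 2.42, 3.68 and 2.53 CPM in saline and at 4.36, 3.06, 2.47, 4.03 and 4.22 CPM in ACLP-NT. This gave a log2 fold change of 0.36 with a 95% interval from -0.039 to 0.76. Its high libraries, ACLP-NT 17, 53 and 55, were also the highest 3 for C1ql2. Amigo2 stood at 21.8, 23.9, 30.2 and 24.0 CPM in saline and at 33.3, 24.8, 34.1, 33.5 and 24.6 CPM in ACLP-NT. The ACLP-NT libraries of Amigo2 split into 3 above every saline library and 2 within the saline range, and the log2 fold change was 0.27 (95% interval -0.032 to 0.57).

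Fibcd1 and Wfs1, the CA1 markers, differed less. Fibcd1 stood at 138.7, 117.6, 157.4 and 132.5 CPM in saline and at 167.4, 163.2, 134.2, 148.9 and 147.0 CPM in ACLP-NT. The log2 fold change was 0.16 (95% interval -0.17 to 0.48). Wfs1 stood at 119.6, 96.1, 79.6 and 76.5 CPM in saline and at 105.2, 118.2, 89.5, 98.1 and 78.1 CPM in ACLP-NT. The Wfs1 groups covered nearly the same span, with a log2 fold change of 0.074 (95% interval -0.22 to 0.37).

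**Figure D2:**
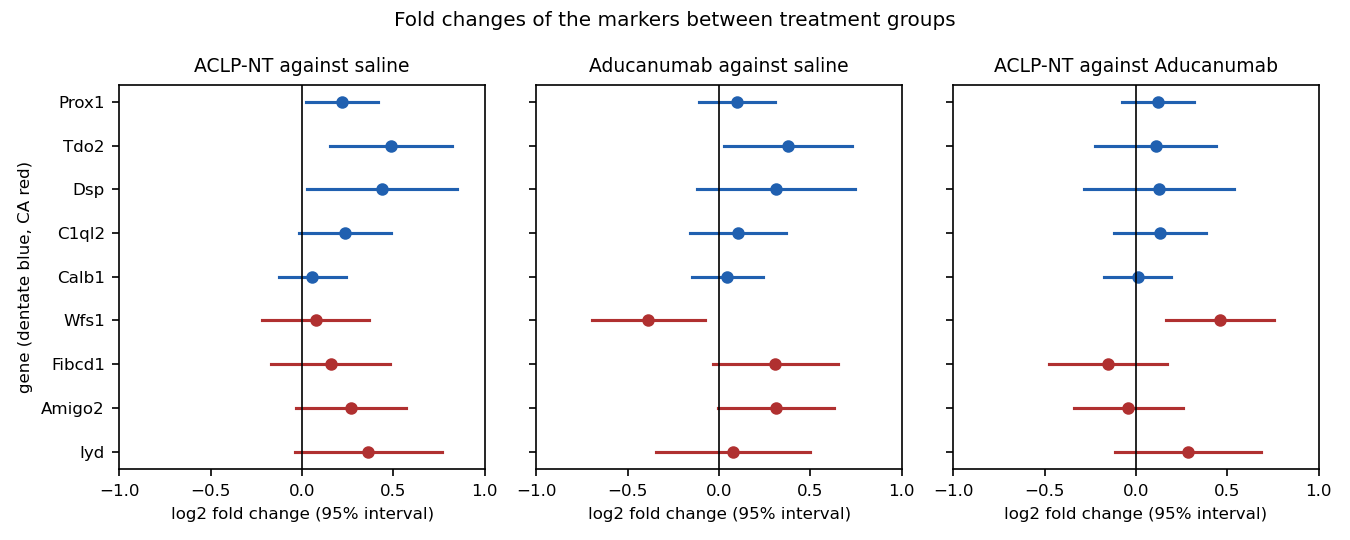
Log2 fold change of each marker (points) with its 95% interval (lines) from the edgeR fit, in 3 panels for the 3 comparisons, dentate markers in blue and CA markers in red. In ACLP-NT against saline the dentate points run from 0.055 for Calb1 to 0.49 for Tdo2, and Wfs1 lies at -0.39 in Aducanumab against saline and at 0.46 in ACLP-NT against Aducanumab.

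A further 10 genes of dentate granule cells were read in the same comparison. This list was chosen with earlier results of these data known, so it is not independent support. All 10 had means above saline, beside 49.4% of all genes, and 0 passed the adjusted threshold. At an unadjusted p under 0.05, 7 were higher (Rfx3, Dock10, Lct, Il16, Trpc6, Stxbp6 and Glis3), beside 2.46% of all genes. The median log2 fold change of the 10 was 0.19, against -0.0015 over all genes tested. Rfx3, a transcription factor of ciliogenesis, had a saline mean of 117.1 ± 11 CPM (SD, n = 4) and an ACLP-NT mean of 137.5 ± 8.51 CPM (SD, n = 5). Its lowest ACLP-NT library, 126.8 CPM, lay above its highest saline library, 124.8 CPM, and the log2 fold change was 0.23 (SE 0.0646; edgeR unadjusted p 0.00307, adjusted p 0.722). Dock10, an activator of small GTPases, also did not overlap, with 98.0 to 107.1 CPM in saline and 107.9 to 123.0 CPM in ACLP-NT. Among all genes, 0.925% were higher with no overlap between these groups. The count of 7 was 3 without saline 18 and 2 without saline 19, without ACLP-NT 53 or without ACLP-NT 55, so it rested on the libraries at both ends of the Prox1 and Dsp values.

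The lists for the other fields were more mixed in ACLP-NT against saline. Other CA1 markers had 3 of 7 genes above saline (median log2 fold change -0.037), and Man1a, a mannosidase of glycoprotein processing, had the smallest p (log2 fold change 0.20, SE 0.106). CA2 markers had 4 of 5 above saline with a median of 0.17, and Map3k15 had the smallest p (0.70, SE 0.350). Other CA3 markers had 6 of 7 above saline with a median of 0.15, and the cadherin Cdh24 had the smallest p (0.28, SE 0.102, edgeR unadjusted p 0.0168). Genes of the mossy fibre synapse, where granule cells contact CA3, had 9 of 12 above saline with a median of 0.055. Bdnf, the neurotrophin stored in mossy fibres, had a saline mean of 30.0 ± 4.58 CPM (SD, n = 4) and an ACLP-NT mean of 38.9 ± 3.23 CPM (SD, n = 5), so that its log2 fold change was 0.38 (SE 0.118; edgeR unadjusted p 0.00675, adjusted p 0.746). Of the genes in these 4 lists, 0 passed the adjusted threshold.

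Markers of neighbouring tissue moved with the same groups. All 10 neocortex markers lay below saline in ACLP-NT, their median log2 fold change was -0.40, and 0 of the 10 was at a count of 0 in any library. Their summed level was 170.1 to 302.7 CPM over the saline libraries, 139.4 to 197.4 CPM over those of Aducanumab and 153.3 to 225.5 CPM over those of ACLP-NT. Saline 18 and saline 19, the lowest libraries for Tdo2 and for Prox1, Dsp and C1ql2, held 302.7 and 244.5 CPM of neocortex markers, and ACLP-NT 53, the highest for Prox1, Tdo2, Dsp and C1ql2, held 153.3 CPM. Not every library paired in this way. Saline 38, the highest of the saline group for Tdo2 and Dsp, held 234.9 CPM. ACLP-NT 27 and Aducanumab 24 held 225.5 and 151.1 CPM, with Prox1 at 109.3 and 107.8 CPM. Tbr1, a factor of deep-layer cortical neurons, had a saline mean of 44.7 ± 9.57 CPM (SD, n = 4) and an ACLP-NT mean of 37.1 ± 4.27 CPM (SD, n = 5). All 4 subiculum markers also lay below saline, with a median of -0.63 and summed levels of 78.0 to 109.6 CPM in saline and 69.3 to 92.1 CPM in ACLP-NT. Of these Ly6g6e had the smallest p (-0.70, SE 0.288). Fn1 made up most of the summed levels, with means of 70.9 CPM in saline and 65.8 CPM in ACLP-NT (log2 fold change -0.11). The part of the neocortex and subiculum in the dentate values was not tested.

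Markers of microglia, astrocytes and choroid plexus also differed in their means. All 5 microglia markers lay below saline in ACLP-NT (median log2 fold change -0.29), 4 of them at an unadjusted p under 0.05, beside 3.43% of all genes lower at that threshold. Csf1r and Cx3cr1 did not overlap between the groups, beside 1.33% of all genes lower with no overlap. The 5 summed to 773.1 to 937.5 CPM in saline and 554.3 to 782.1 CPM in ACLP-NT. All 5 astrocyte markers lay below saline with a median of -0.091, among them Gfap, the astrocyte filament protein, at -0.43 (SE 0.163). Oligodendrocyte markers lay above saline in 2 of 5 genes with a median of -0.0079, but their sum was 3344 and 3278 CPM in ACLP-NT 17 and 27, below every saline library (4154 to 4999 CPM), and 5258 to 5618 CPM in the other 3 ACLP-NT libraries, above every one. All 11 choroid plexus markers lay above saline with a median of 0.80. ACLP-NT 53 and ACLP-NT 55, the highest libraries for Prox1 and Tdo2, had 5129 and 88.2 CPM of choroid plexus markers. The part of glial cells and of choroid plexus in these results was not tested.

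**Figure D3:**
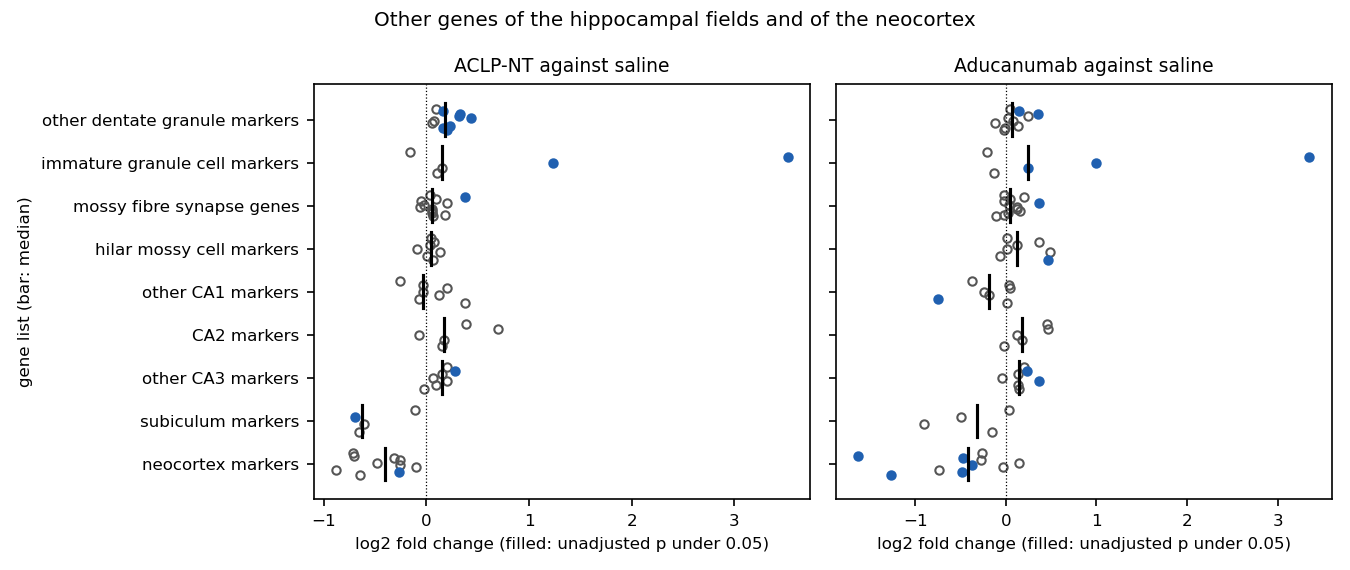
Log2 fold change of each gene of 9 lists in ACLP-NT against saline and Aducanumab against saline, with filled points for an unadjusted p under 0.05 and black bars for list medians. In ACLP-NT against saline the 10 other dentate markers all lie right of 0 and the 10 neocortex markers all lie left of it, and the far right point is Eomes, whose levels were low.

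Aducanumab against saline used the same saline libraries, so its values are not independent of those above. Of the 9 markers, 0 passed the adjusted threshold, as did 0% of all genes (edgeR, all 9 at an adjusted p of 1). All 5 dentate markers and 3 of 4 CA markers had means above saline, beside 51.3% of all genes. At an unadjusted p under 0.05, Tdo2 was higher, beside 2.07% of genes, and Wfs1 was lower, beside 2.62% of genes.

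Wfs1 was the CA marker with the widest difference. It measured 59.4, 76.7, 75.1 and 73.0 CPM in Aducanumab animals 24, 50, 56 and 58, against 76.5 to 119.6 CPM in saline. Only Aducanumab 50 reached the saline range, and it passed saline 38 alone. The saline mean was 93.0 ± 19.7 CPM (SD, n = 4) and the Aducanumab mean 71.1 ± 7.94 CPM (SD, n = 4), which gives a log2 fold change of -0.39 (SE 0.145; edgeR unadjusted p 0.0183). With each library left out in turn the log2 fold change stayed between -0.47 and -0.24.

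Fibcd1, the other CA1 marker, had a higher mean than saline. It measured 221.4, 184.2, 160.5 and 109.9 CPM in the Aducanumab animals, so the group held both the highest and the lowest of all 13 libraries. Its mean was 169.0 ± 46.7 CPM (SD, n = 4), that of saline was 136.5 ± 16.5 CPM (SD, n = 4), which gives a log2 fold change of 0.31 with a 95% interval from -0.034 to 0.65. Amigo2 measured 34.4, 24.1, 35.9 and 29.5 CPM, with a log2 fold change of 0.31 (95% interval -0.0048 to 0.63). Iyd measured 2.63, 2.77, 3.28 and 3.23 CPM, within the saline range, with a log2 fold change of 0.078. The 4 CA markers thus did not share a direction against saline.

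Of the dentate markers, Tdo2 measured 6.28, 5.45, 6.85 and 7.21 CPM in the Aducanumab animals, a log2 fold change of 0.38 (SE 0.163; edgeR unadjusted p 0.0357). Aducanumab 50 lay within the saline range and the other 3 lay above it. Dsp measured 42.9, 35.4, 66.8 and 56.8 CPM, with 2 libraries inside the saline range and 2 above it, and a log2 fold change of 0.31 (95% interval -0.12 to 0.74). Prox1 measured 107.8, 111.9, 119.7 and 114.1 CPM, C1ql2 73.3, 72.5, 80.5 and 75.4 CPM, and Calb1 122.7, 125.7, 126.7 and 102.8 CPM. All Prox1 and C1ql2 values of this group lay inside the saline ranges, with log2 fold changes of 0.097 and 0.10, and the log2 fold change of Calb1 was 0.045. The single dentate marker at an unadjusted p under 0.05 was lost without saline 18, Aducanumab 24, Aducanumab 56 or Aducanumab 58, and the count was 2 without Aducanumab 50. It was also 0 when the fit held only these groups, and 0 without Aducanumab 50 and Aducanumab 58 together.

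The fixed lists in Aducanumab against saline gave 7 of 10 other dentate markers above saline (median log2 fold change 0.066). At an unadjusted p under 0.05, 2 of them were higher, beside 2.07% of all genes, Dock10 at 0.14 (SE 0.0580) and Glis3, a zinc finger factor, at 0.35. That count was 0 without saline 18, saline 19, Aducanumab 56 or Aducanumab 58, 1 without saline 38, Aducanumab 24, ACLP-NT 17, ACLP-NT 27, ACLP-NT 53 or ACLP-NT 55, and 4 without saline 32 or Aducanumab 50. Other CA1 markers had 3 of 7 above saline with a median of -0.19. Other CA3 markers had 6 of 7 above saline with a median of 0.15. The smallest p was that of Grik4 (0.36, SE 0.106), a kainate receptor subunit that the mossy fibre list also holds. The mossy fibre list had 8 of 12 above saline with a median of 0.041, and CA2 markers had 4 of 5 with a median of 0.18. In the CA2 list the widest values were those of Map3k15 (0.46, SE 0.366) and Cacng5 (0.46, SE 0.351), and the calcium-binding Necab2 had the smallest p (0.13, SE 0.0868).

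Neocortex markers were lower in this comparison too, 9 of 10 (median log2 fold change -0.42), and 5 of them at an unadjusted p under 0.05, beside 2.62% of all genes. Of these, Cplx3 (-1.63, SE 0.460) and Tshz2 (-1.27, SE 0.380) had the widest differences and Tbr1 (-0.48, SE 0.129) the smallest p. Of the subiculum markers 3 of 4 were lower, with Nts at -0.90 (SE 0.573) and Ly6g6e at -0.49 (SE 0.305). Their summed level was above every saline library in Aducanumab 50 and 58 (124.5 and 126.4 CPM) and below every one in Aducanumab 24 and 56 (62.0 and 52.1 CPM). Fn1 made up most of that sum, with means of 72.4 CPM in Aducanumab and 70.9 CPM in saline (log2 fold change 0.031). The sum is therefore chiefly a reading of 1 gene. Thalamus markers lay above saline in 7 of 7 genes with a median of 0.66, but the libraries were split. Their sum was 233.0 CPM in Aducanumab 50 and 128.6 CPM in Aducanumab 58, and 85.1 CPM in Aducanumab 24 and 91.4 CPM in Aducanumab 56, the last pair below all saline libraries (100.3 to 102.8 CPM). Without Aducanumab 50 and 58 together, the log2 fold change of Wfs1 was -0.47. That setting removed the libraries of the group with the most thalamus markers and did not address the neocortex markers. Wfs1 was highest in saline 18 (119.6 CPM), which also held the most neocortex markers (302.7 CPM). ACLP-NT 53 and saline 38, at 98.1 and 76.5 CPM of Wfs1, held 153.3 and 234.9 CPM of neocortex markers. All 5 microglia markers were lower as well (median log2 fold change -0.27), 3 of them at an unadjusted p under 0.05, and Csf1r and Cx3cr1 did not overlap with saline, beside 1.41% of all genes lower with no overlap. Their sums were 645.9 to 783.5 CPM, against 773.1 to 937.5 CPM for saline. Choroid plexus markers were higher in 11 of 11 genes (median 0.82), with 0 at an unadjusted p under 0.05. Blood markers were higher in 5 of 5 (median 0.46), also with 0 at that threshold, and summed to 122.2 to 360.5 CPM against 123.8 to 192.3 CPM. The part of these tissues and cells in the marker values was not tested.

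ACLP-NT against Aducanumab compares the treated groups directly. Of the 9 markers, 0 passed the adjusted threshold, as did 0% of all genes (edgeR, all 9 at an adjusted p of 1). Wfs1 alone had an unadjusted p under 0.05, beside 1.53% of genes higher in ACLP-NT. Its ACLP-NT libraries lay at 78.1 to 118.2 CPM and its Aducanumab libraries at 59.4 to 76.7 CPM, with no overlap, which held for 0.693% of all genes higher in ACLP-NT. The log2 fold change was 0.46 (SE 0.138; edgeR unadjusted p 0.00497), and it stayed between 0.38 and 0.53 with each library left out.

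The other 8 markers overlapped between the treated groups. All 5 dentate and 2 of 4 CA markers had means above Aducanumab, beside 47.6% of all genes. The dentate markers had log2 fold changes of 0.011 to 0.13, and their 95% intervals reached from -0.28 to 0.53 for Dsp and from -0.17 to 0.19 for Calb1. Iyd had a log2 fold change of 0.29, Fibcd1 of -0.15 and Amigo2 of -0.043. The count of CA markers above Aducanumab was 2 with all libraries and 4 without Aducanumab 24. Without ACLP-NT 49, 1 dentate marker had an unadjusted p under 0.05, where 0 had with all libraries. Of the other dentate markers, 8 of 10 lay above Aducanumab with a median of 0.085. At an unadjusted p under 0.05, 3 of them were higher (Trpc6, Stxbp6 and Lct), beside 1.53% of all genes. That count was 1 without Aducanumab 24 or Aducanumab 50, and 0 without ACLP-NT 53, without ACLP-NT 55 or without Aducanumab 50 and 58 together. Other CA1 markers had 6 of 7 above Aducanumab with a median of 0.20. The smallest p was that of Necab2 in the CA2 list (-0.20, SE 0.0822), of the proteoglycan Spock1 in the CA3 list (-0.17, SE 0.0908) and of Pdyn, the dynorphin precursor, in the mossy fibre list (0.20, SE 0.0894). Thalamus markers lay below Aducanumab in 7 of 7 genes, with a median of -0.52. Their sum was 89.9 to 125.8 CPM in the ACLP-NT libraries, against 85.1, 91.4 and 128.6 CPM in Aducanumab 24, 56 and 58 and 233.0 CPM in Aducanumab 50. Blood markers were lower in 5 of 5 genes (median -0.60), with 0 at an unadjusted p under 0.05. The part of the thalamus and of blood in these values was not tested.

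Over the 13 libraries, 4 of the 5 dentate markers varied together. Correlations were computed on log2 CPM for all 36 pairs of the 9 markers, with two-sided permutation p-values (100000 resamples) adjusted over the 36 pairs. The 6 pairs among Prox1, Tdo2, Dsp and C1ql2 had Pearson r of 0.61 to 0.90, and 5 of them passed at an adjusted p of 0.05. Prox1 and C1ql2 had r of 0.90 (permutation p 4e-05, adjusted p 0.00072) and Spearman rho of 0.84 (permutation p 0.00049, adjusted p 0.00828). Without ACLP-NT 53 and saline 19, the libraries farthest from the median of Prox1, their r was 0.79. Tdo2 and Dsp had r of 0.85 (permutation p 0.0003, adjusted p 0.0027) and rho of 0.82 (permutation p 0.00114, adjusted p 0.0103), and r of 0.81 without saline 18 and saline 19. The pair that did not pass was Tdo2 and C1ql2, with r of 0.61 and an adjusted permutation p of 0.101. Dsp and C1ql2 passed with r of 0.73 but had r of 0.47 without saline 19 and ACLP-NT 53, so that relation rested in part on those libraries.

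Calb1 stood outside the dentate group. Its 8 pairs had r of -0.32 to 0.22, and 0 of them passed at the adjusted threshold. With Prox1 its r was -0.32 and its rho -0.29, and without ACLP-NT 53 and saline 19 the r was -0.072. The 4 CA markers did not vary together either: their 6 pairs had r of -0.35 to 0.32, and 0 passed. Wfs1 and Fibcd1, both CA1 markers, had r of -0.27 over all libraries and 0.12 without Aducanumab 24, in which Fibcd1 was highest and Wfs1 lowest of all libraries. The name CA field markers therefore groups genes that had no shared pattern in these libraries.

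Iyd, named as a CA marker, varied with C1ql2 and Prox1 among the dentate markers. Its r with C1ql2 was 0.93 (permutation p 2e-05, adjusted p 0.00072), the highest of the 36 pairs, and rho was 0.96 (permutation p 1e-05, the smallest that 100000 resamples can give, adjusted p 0.00036). The r was 0.94 without saline 19 and ACLP-NT 53, and 0.92 to 0.95 with each library left out in turn. With Prox1 the r of Iyd was 0.82 and its rho 0.84 (permutation p 8e-05 and 0.00069, adjusted p 0.00096 and 0.00828), and the r was 0.81 without ACLP-NT 53 and saline 19. With Dsp and Tdo2 the r of Iyd was 0.65 and 0.57 and did not pass (adjusted permutation p 0.0782 and 0.132). By rho, Dsp did pass (0.70, adjusted permutation p 0.0482). The r with Calb1 was -0.28. With Wfs1, Fibcd1 and Amigo2 the r of Iyd was 0.099, 0.14 and 0.32, and none of the 3 passed. Amigo2, also a CA marker, had r of 0.57 with Tdo2 and 0.56 with Dsp, which did not pass (adjusted permutation p 0.132 and 0.15). Ranked by r among 22029 other genes, C1ql2 was number 1 for Iyd, Iyd was number 2 for C1ql2, and C1ql2 was number 4 for Prox1. The data in hand do not place Iyd in a field, since the RNA is from whole hippocampus. Its levels followed C1ql2 and Prox1 more closely than those of the other CA markers.

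**Figure D4:**
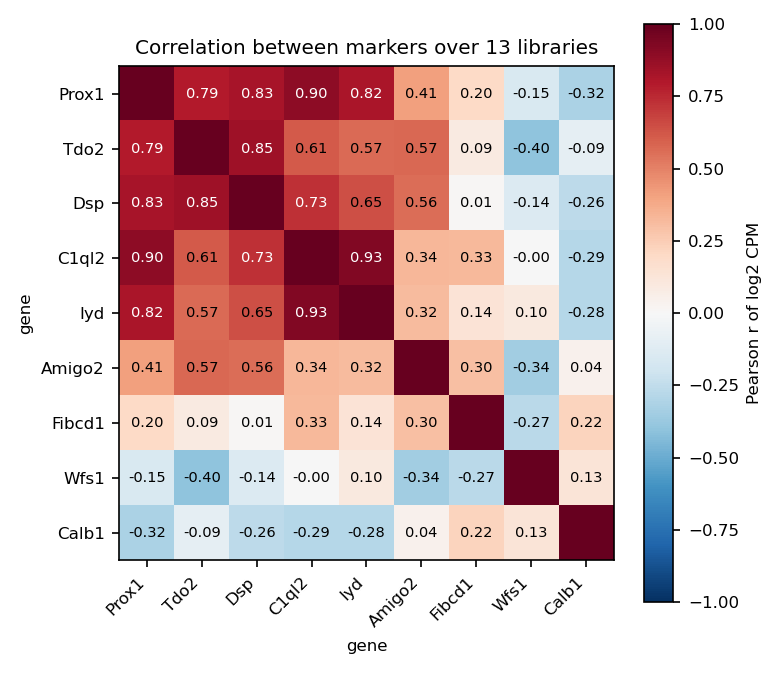
Pearson r of log2 CPM over 13 libraries for each pair of markers, with red for positive and blue for negative values. Prox1, Tdo2, Dsp, C1ql2 and Iyd form a block with r of 0.57 to 0.93, and Wfs1, Fibcd1 and Calb1 lie outside it. Amigo2 lies between, with r of 0.57 to Tdo2 and 0.56 to Dsp but 0.32 to Iyd.

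**Figure D5:**
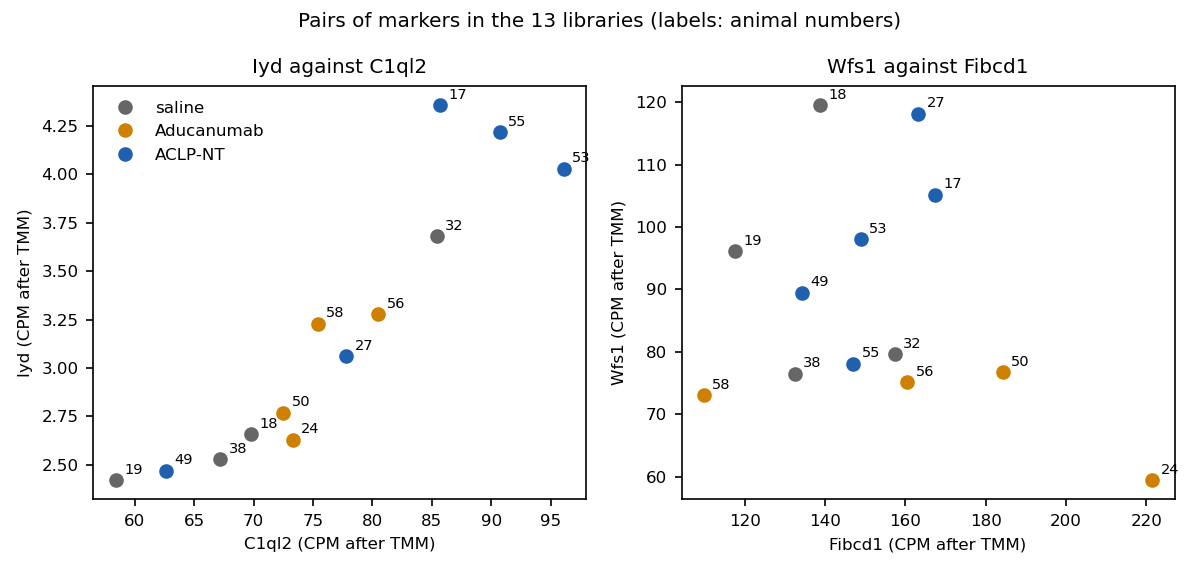
Levels in each library (CPM after TMM scaling, axes not from 0) for Iyd against C1ql2 and for Wfs1 against Fibcd1, with 1 point per library, numbered by animal and colored by group. In the left panel Iyd is higher where C1ql2 is higher in all 3 groups, and in the right panel Aducanumab 24 lies apart at 221.4 CPM of Fibcd1 and 59.4 CPM of Wfs1.

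The pairs were computed again within groups, by taking the group mean from each value. The resampling then ran over all libraries and made no allowance for the means removed. The within-group p-values, and the counts of pairs that passed by them, are therefore too lenient. The 6 pairs among Prox1, Tdo2, Dsp and C1ql2 had r of 0.47 to 0.87, 4 of them past the adjusted threshold, and Iyd and C1ql2 had r of 0.91. The shared variation of these genes was thus present among animals of the same treatment. Tdo2 and Wfs1, with r of -0.40 over all libraries, had r of -0.71 and rho of -0.80 within groups (permutation p 0.00773 and 0.00152, adjusted p 0.0398 and 0.0139), and r of -0.50 without saline 38 and saline 18. By r, 7 of 36 pairs passed in both computations, 5 and 4 of them among the dentate markers, and by rho 7 passed in both, 4 of them among the dentate markers each time. On log2(FPKM + 1), 7 pairs passed by r, 5 of them dentate, but 4 by rho, 2 of them dentate.

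As a description of the balance between the dentate and CA markers, the mean centred log2 CPM of the 4 CA markers was taken from that of the 5 dentate markers in each library. This difference does not measure the fields themselves, since the CA markers shared no pattern, Iyd followed C1ql2 and Calb1 stood apart. It averaged -0.068 ± 0.17 (SD, n = 4) in saline, 0.052 ± 0.125 (SD, n = 4) in Aducanumab and 0.013 ± 0.172 (SD, n = 5) in ACLP-NT. The highest values were 0.204 in ACLP-NT 55, 0.203 in Aducanumab 58 and 0.164 in saline 38, and the lowest were -0.243 in saline 18 and -0.233 in ACLP-NT 17. Saline and ACLP-NT therefore spanned most of the range, Aducanumab ran from -0.052 to 0.203, and the groups overlapped. The dentate mean alone ran from -0.321 in saline 19 to 0.341 in ACLP-NT 53.

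The genes outside the 9 whose levels were most like the mean of the 5 dentate markers over the 13 libraries were Foxk1 (r = 0.98), Slc26a10 (r = 0.96), Dgkh (r = 0.93), Dgat2 (r = 0.92) and Zbtb20 (r = 0.92). Foxk1 is a forkhead factor, with 66.6 to 86.1 CPM, and Zbtb20 is a zinc finger factor of hippocampal development, with 200.1 to 343.0 CPM. Dgkh encodes a diacylglycerol kinase and Dgat2 an enzyme of triglyceride synthesis. Most like the mean of the 4 CA markers were Scn3b (r = 0.91), Gadd45b (r = 0.89), Ppp3ca (r = 0.86), Dhx33 (r = 0.86) and Pygo1 (r = 0.86). Scn3b encodes a sodium channel subunit, with 199.9 to 283.0 CPM, and Ppp3ca the catalytic subunit of calcineurin, with 1092 to 1497 CPM. These are the closest of the tested genes with a mean of at least 5 CPM, with predicted genes (Gm, Rik, LOC, AC and AL names) left out. They are given as descriptions without a test.

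The table places Prox1 (ENSMUSG00000010175) at chr1:189850232-189902911, Tdo2 (ENSMUSG00000028011) at chr3:81864397-81883509, Dsp (ENSMUSG00000054889) at chr13:38335270-38382553, C1ql2 (ENSMUSG00000036907) at chr1:120268312-120270903 and Calb1 (ENSMUSG00000028222) at chr4:15881264-15908064. Wfs1 (ENSMUSG00000039474) is at chr5:37123448-37146549, Fibcd1 (ENSMUSG00000026841) at chr2:31703302-31736017, Amigo2 (ENSMUSG00000048218) at chr15:97142006-97145168 and Iyd (ENSMUSG00000019762) at chr10:3490240-3504877. The build of these positions was not given in the sources used here, and they were not mixed with those of the RefSeq windows above. Genes on the opposite strand overlap 3 of the 9 in the table, and whether the counting used strand is not given. Prox1os measured 2.81 to 5.04 CPM at Prox1, Pced1b 3.83 to 6.33 CPM at Amigo2, and Gm10129 0.0308 to 0.199 CPM at Dsp. Their levels were small beside those of Prox1 and Dsp, but Pced1b reached a level that is not negligible beside the 21.8 to 35.9 CPM of Amigo2.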

How the data were processed

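Counts and FPKM came from 1 table of 13 libraries. Per the file headers, the authors deposited raw counts per gene and FPKM, fragments scaled to gene length and library total. Per the submitters' processing notes, cutadapt 1.9, HISAT2 2.0.4, StringTie 1.3.4d and edgeR were used. The counter, annotation and genome build were not given in the sources used here. The table shared 33727 identifiers with GENCODE M21 (GRCm38), and 614 of these had equal positions. From the counts, genes were filtered with filterByExpr, TMM-scaled and tested in edgeR 4.0.16 (quasi-likelihood), the 3 groups in 1 fit, two-sided, adjusted over 22065 genes (threshold 0.05), a script tested on simulated data. Standard errors derive from the F statistic. Correlations used log2 CPM with a prior count of 2. DESeq2 1.42.0 and limma 3.58.1 on FPKM were alternatives. Named genes were the 9 markers, the gene with the smallest p of each hippocampal list and of the neocortex list, the 5 genes most like each mean, and Ttr, Tbr1 and Gfap where they moved with a marker. A gene that this rule names is not reported here. Further genes named in counts were chosen after their values were seen. The markers and the 20 gene lists were chosen with earlier results of these data known. The RefSeq windows are of build GRCm38.p6.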

Additional observations from a re-analysis of the deposited data

Results flagged for a closer look

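Calb1 was at 141.4 CPM in saline 19, where the other 3 saline libraries held 106.0 to 108.3 CPM. The gap to the nearest library was 0.926 of the range of the group on the log2 scale. In the Aducanumab group, Calb1 was at 102.8 CPM in Aducanumab 58, where the other 3 held 122.7 to 126.7 CPM, a gap of 0.846 of the range. These were the libraries that lay far from the rest of their group among the 27 combinations of a marker and a group that were checked, and chance marks about 1 in 20. Saline 19 was also the lowest library for Prox1, Dsp and C1ql2, and Aducanumab 58 the lowest for Fibcd1.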

How the results depend on the processing

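Of the 594 recomputed fold changes of the 9 markers, 583 kept their direction and stayed on the same side of the adjusted threshold, and 11 changed sign, with 0 markers past that threshold under any setting. DESeq2 called 7 genes in ACLP-NT against saline, 12 in Aducanumab against saline and 3 in ACLP-NT against Aducanumab, where edgeR called 0 with 1298, 1033 and 716 at an unadjusted p under 0.05. With each library left out in turn, the genes called were 0 to 1 in each comparison. The log2 fold change then ran from -0.0079 to 0.218 for Wfs1 in ACLP-NT against saline, and in ACLP-NT against Aducanumab from -0.0117 to 0.291 for Dsp, from -0.0549 to 0.0402 for Calb1, from -0.311 to 0.00569 for Fibcd1 and from -0.146 to 0.0355 for Amigo2. The last comparison gave -0.0491 for Calb1 without Aducanumab 50 and 58 together. The r of Wfs1 and Fibcd1 ran from -0.471 to 0.119. Counts at an unadjusted p under 0.05 ran from 2 to 7 for other dentate markers and 1 to 4 for dentate markers in ACLP-NT against saline, from 0 to 4 and 0 to 2 in Aducanumab against saline, and from 0 to 3 and 0 to 1 in ACLP-NT against Aducanumab. The CA markers above Aducanumab numbered 2 to 4. In Aducanumab against saline, other dentate markers numbered 1 with no filter, 0 with limma on log2(FPKM + 1), 0 with limma on log2(FPKM + 0.1) and 1 with only the 2 groups compared, and dentate markers 0 with only the 2 groups and 0 without Aducanumab 50 and 58. In ACLP-NT against Aducanumab other dentate markers numbered 0 without Aducanumab 50 and 58. The balance of dentate and CA markers in ACLP-NT against Aducanumab ran from -0.0871 to 0.0224. The cause of these changes was not tested. The settings that left out Aducanumab 50 and 58, or single libraries for pairs and balance, were chosen after seeing the data. No paired analysis was possible because the groups share no replicate number. With 4 or 5 animals a group, small differences between groups were not detectable here.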

Other observations

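Markers of hilar mossy cells, the excitatory neurons inside the blades of the dentate gyrus, had 6 of 7 genes above saline in ACLP-NT (median log2 fold change 0.049) and 6 of 7 in Aducanumab (median 0.13). Ajap1, an adhesion protein, had the smallest p of them in ACLP-NT against saline, with a log2 fold change of 0.049 (SE 0.0611). Tm4sf1, a membrane protein, had means of 13 ± 2.30 CPM (saline; SD, n = 4), 17.9 ± 5.38 CPM (Aducanumab; SD, n = 4) and 13.5 ± 2.18 CPM (ACLP-NT; SD, n = 5). Markers of immature granule cells had 4 of 5 genes above saline in ACLP-NT (median 0.15) and 3 of 5 in Aducanumab (median 0.24). The counts of both lists stand beside 49.4% of all genes above saline in ACLP-NT and 51.3% in Aducanumab. Dcx lay below saline in ACLP-NT and in Aducanumab (log2 fold changes -0.16 and -0.20), and Sox11 lay below it in Aducanumab (-0.13). Neurod1, a factor of granule cell maturation, had means of 19.9 ± 1.81 CPM (saline; SD, n = 4), 23.6 ± 0.989 CPM (Aducanumab; SD, n = 4) and 22.1 ± 1.47 CPM (ACLP-NT; SD, n = 5). Its log2 fold change in Aducanumab against saline was 0.24 (SE 0.0754, edgeR unadjusted p 0.00614, adjusted p 1). Igfbpl1 had a saline mean of 1.12 ± 0.291 CPM (SD, n = 4) and an ACLP-NT mean of 2.62 ± 1.46 CPM (SD, n = 5). Eomes, a factor of intermediate progenitors, ranged from 0.0484 to 0.184 CPM in saline, from 0.279 to 3.71 CPM in Aducanumab and from 0.149 to 5.59 CPM in ACLP-NT. Its mean was 1.19 ± 1.68 CPM in Aducanumab (SD, n = 4) and 1.33 ± 2.38 CPM in ACLP-NT (SD, n = 5). The SD thus exceeded the mean in both treated groups. In ACLP-NT against Aducanumab, Sox11, a factor of young neurons, had a log2 fold change of 0.23 (SE 0.0803), Slc17a6, a glutamate transporter of the subiculum, one of -0.50 (SE 0.605), and Cplx3, a complexin of the neocortex, one of 0.92 (SE 0.438).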
